A study of Mus musculus with 6 samples.

Results

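Chromosome 8 was examined by array-CGH in 3 Tgfbr2 fspKO mice, in epithelia and stroma of the forestomach isolated by laser capture. Its members were the 2155 probes of the array with a position on chromosome 8 of the mouse build mm8, out of 42404 probes that are not controls. The chromosome was selected on the mean log2 ratio of its probes, which was higher in the epithelia, so that level is given as a description. Counts of its probes, windows and bins in the same values stand beside the same share over the autosomes or the whole array, and nothing is read from them. The probes spanned chr8:3151837-132061985, with a median of 18.6 kb between the starts of neighbors. The largest stretch without a probe, 3715 kb, lay between 19496644 and 23211984.

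The test DNA (Cy3) came from forestomach with squamous cell carcinoma of Tgfbr2 fspKO mice of strain C57Bl/6, with 1 epithelial and 1 stromal array for each of the mice FSP270, FSP273 and FSP373. In these mice the floxed Tgfbr2 alleles are deleted by a Cre transgene driven by the FSP1 promoter, which is active in stromal fibroblasts. The reference DNA (Cy5) on all 6 arrays was from epithelia of normal forestomach of Tgfbr2 flox/flox mice, which carry the same floxed alleles. The sample labels give no age. Tissues were recognized by morphology, and since DNA was measured no cell type marker could be checked. No Tgfbr2 flox/flox mouse was hybridized as a test sample, so the spread between control mice was not measured.

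Tgfbr2 encodes the type II receptor for TGF-β, a growth factor that restrains the proliferation of many epithelia and acts between fibroblasts and the epithelium next to them. Array-CGH measures DNA dose along the chromosomes, and gains or losses of whole chromosomes or of large parts of them are frequent in carcinomas. In the RefSeq gene table of the assembly GRCm38, all 24 genes listed for orientation were on chromosome 8, among 1042 protein-coding genes. From the centromeric end they begin with Insr, the insulin receptor, and Lamp1, a lysosomal membrane protein. Fgfr1, a fibroblast growth factor receptor, and Vegfc, a lymphatic growth factor, follow. Jund and Junb, subunits of the AP-1 transcription factor, flank Jak3, a cytokine receptor kinase, and Il15, a lymphocyte growth factor. Further along are Mmp2, a matrix metalloproteinase, Ctcf, a chromatin insulator protein, and the adjacent pair Cdh3 and Cdh1, which encode P-cadherin and E-cadherin. Fanca, a DNA repair gene, and Mc1r, the melanocortin 1 receptor, are near the distal end. The probes carry positions of another build and no gene names, so no probe was assigned to any of these genes.

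At the scale of 10 Mb, the epithelial mean was above 0 throughout chromosome 8 in mice FSP270 and FSP373, but not in FSP273. The height of the rise varied, and against the stroma of the same mouse it was small in places. Over 10 Mb, the smallest epithelia minus stroma value was 0.053 in FSP270, -0.37 in FSP273 and 0.047 in FSP373. Values are log2 ratios of test over reference, centered on the median of each array. The mean over chromosome 8 was 0.24 in the epithelia of FSP270, 0.50 in FSP273 and 0.29 in FSP373. It was the highest of 20 chromosomes on each of these arrays. In the stroma it was -0.020, -0.035 and 0.033 in the same order. Each epithelial mean was above each stromal mean. The epithelial mean was 0.34 ± 0.14 (SD, n = 3) and the stromal mean -0.0074 ± 0.036 (SD, n = 3). Epithelia exceeded stroma by 0.26, 0.53 and 0.25 in the 3 mice, or 0.35 ± 0.16 (SD, n = 3 mice). A log2 ratio of 0.58 would correspond to 3 copies in place of 2 in every cell. More copies in few cells and fewer copies in many cells cannot be told apart in DNA of captured tissue.

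The chromosomes next in order by the epithelial mean were chromosome 19, at 0.12 ± 0.044, and chromosome 15, at 0.10 ± 0.023 (SD, n = 3 each). Both were below chromosome 8 on all 3 epithelial arrays. Single probes were noisy, and the SD over the chromosome 8 probes was 0.56, 0.99 and 0.46 in the epithelia of FSP270, FSP273 and FSP373. The array of FSP273 epithelia stood apart in this respect. Over the whole array, the derivative SD of its log ratios, a measure of noise between adjacent probes, was 0.84 there and between 0.40 and 0.49 on the other 5. The share of chromosome 8 probes above 0 was 67.5%, 69.0% and 74.2% in the epithelia, against 48.5%, 49.4% and 48.3% of the probes of the other autosomes. In the stroma it was 45.5%, 47.4% and 52.1%, against 49.9%, 49.9% and 49.7% on the other autosomes.

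The channels were also read apart, which divides the log ratio that chose the chromosome and is a description. With each channel centered on its own array median, the median reference signal of chromosome 8 lay between -0.18 and -0.14 on the log2 scale on all 6 arrays. The median test signal was 0.058, 0.32 and 0.12 in the epithelia of FSP270, FSP273 and FSP373, and -0.20, -0.18 and -0.12 in their stroma.

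The log ratio also moved with the brightness of the reference signal, most of all in FSP273 epithelia. Over the 718 dimmest, the 718 middle and the 719 brightest probes of chromosome 8, the mean in FSP273 epithelia was 0.81, 0.55 and 0.13. Probes of the other autosomes divided the same way had 0.38, -0.0033 and -0.34 on this array. Chromosome 8 exceeded them by 0.43, 0.56 and 0.47. In FSP270 epithelia the corresponding excess was 0.21, 0.26 and 0.30, and in FSP373 epithelia it was 0.28, 0.30 and 0.31. The groups were cut within each set of probes and were not matched in brightness, so each excess is not adjusted for it. The median reference signal of chromosome 8 was below the array median on every array. The reference signal is part of the ratio, and the part of brightness in the rise was not tested.

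Along the chromosome, means were taken over bins of 10 Mb with at least 20 probes, which gave 13 bins from 0 to 130 Mb. In FSP270 epithelia all 13 bins were above 0, from 0.11 at 120 to 130 Mb up to 0.51 at 50 to 60 Mb. In FSP373 epithelia all 13 were above 0 as well, from 0.16 at 120 to 130 Mb up to 0.48 at 110 to 120 Mb. These lowest values of FSP270 and FSP373, 0.11 and 0.16, were near the means of chromosome 19 on the same arrays, 0.13 and 0.16. In FSP273 epithelia 10 of 13 were above 0, and the 3 others lay side by side between 40 and 70 Mb. Their means were -0.053, -0.28 and -0.019, whereas the bin at 110 to 120 Mb reached 0.96. Stroma had 5, 5 and 7 of 13 bins above 0 in FSP270, FSP273 and FSP373. Of 237 bins of the other autosomes, 53.2%, 37.6% and 48.9% were above 0 in the epithelia and 64.6%, 48.5% and 41.4% in the stroma.

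The bins of FSP273 epithelia were uneven, with an SD over the 13 bins of 0.39, the highest among the 19 autosomes of that array. The other autosomes had SDs from 0.11 to 0.31 there. In FSP270 and FSP373 epithelia the SD over the chromosome 8 bins was 0.11 and 0.10, ranking 4 and 2 of 19.

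On all 3 epithelial arrays together, 10 of 13 bins of chromosome 8 were above 0. Over the 250 autosomal bins this share was 18.8%. The same number, 10 of 13, was higher in epithelia than in stroma in all 3 mice (14.4% of autosomal bins), and 10 of 13 had every epithelial array above every stromal array (10.8% of autosomal bins). Since these contrasts chose the chromosome, nothing is read from these counts. Without mouse FSP273, all 13 bins were above 0 on the remaining epithelial arrays (42.8% of autosomal bins) and all 13 were higher in epithelia than in stroma (33.2%).

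The 3 highest bins by the epithelial mean were adjacent, from 90 to 120 Mb. The bin at 90 to 100 Mb had 0.32, 0.78 and 0.41 in the epithelia of FSP270, FSP273 and FSP373, and -0.013, -0.012 and -0.018 in their stroma. The bin at 100 to 110 Mb had 0.29, 0.95 and 0.43 in the epithelia and -0.065, -0.099 and -0.036 in the stroma. The bin at 110 to 120 Mb had 0.40, 0.96 and 0.48 in the epithelia and -0.081, -0.036 and -0.0080 in the stroma. In these 3 bins every epithelial array was above every stromal array, as in 10 of 13 bins of chromosome 8 and 10.8% of autosomal bins. The same 3 had the largest difference between tissues (0.52, 0.62 and 0.65).

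The 3 lowest bins by the epithelial mean were also adjacent, from 30 to 60 Mb. The bin at 30 to 40 Mb had 0.18, 0.10 and 0.18 in the epithelia and -0.071, 0.077 and 0.061 in the stroma. The bin at 40 to 50 Mb had 0.19, -0.053 and 0.19 in the epithelia and 0.030, 0.042 and -0.040 in the stroma. The bin at 50 to 60 Mb, which held 47 probes, had 0.51, -0.28 and 0.29 in the epithelia and 0.46, 0.089 and 0.12 in the stroma. There the tissues overlapped and the difference was -0.048 ± 0.29 (SD, n = 3 mice), smaller than its SD. The array that lowered it was FSP273 epithelia, and without that mouse the difference was 0.11. Mouse FSP270 was high in both of its tissues in this bin.

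Both ends of the chromosome were above 0 in the epithelia. The first 100 probes, up to 9992155, had means of 0.23, 0.35 and 0.24 in the epithelia of FSP270, FSP273 and FSP373. The last 100, from 126857941 on, had 0.14, 0.23 and 0.20. In the stroma the first 100 had -0.047, -0.063 and 0.089, and the last 100 had -0.079, -0.066 and -0.017.

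At finer scale, the chromosome was divided into 107 windows of 20 neighboring probes, with a median span of 666 kb. Above 0 were 95 windows in FSP270 epithelia, 91 in FSP273 and 104 in FSP373. Of 1917 windows of the other autosomes 45.9%, 49.3% and 46.4% were. The stroma had 41, 43 and 63 on chromosome 8, and 52.2%, 46.5% and 49.0% on the other autosomes. In FSP373 epithelia no windows below 0 were adjacent, and in FSP270 epithelia at most 2 were. The longest run below 0 in FSP273 epithelia was 4 windows, chr8:37570664-45018708, with a mean of -0.29. Higher in epithelia than in stroma were 96, 84 and 93 windows in FSP270, FSP273 and FSP373, and 69 of 107 in all 3 mice. On the other autosomes the shares were 41.7%, 50.5% and 47.6%, and 15.9% of all autosomal windows were higher in all 3 mice. For epithelia minus stroma, the longest run of windows below 0 was 2 in FSP270, 5 in FSP273 and 5 in FSP373. The run in FSP273 was chr8:48403360-63619107, with a mean of -0.23. That in FSP373 was chr8:73023942-74617929, with a mean of -0.17. This contrast chose the chromosome.

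Each array was also divided on its own into segments of a single level by penalized least squares, with a segment called raised from a mean of 0.1. In FSP270 epithelia 3 segments covered the chromosome, with means of 0.23, 0.36 and 0.11 from the proximal to the distal end, and 100% of the probes were in raised segments. In FSP373 epithelia there were also 3, with means of 0.24, 0.43 and 0.14, and again 100% were raised. In FSP273 epithelia there were 6 segments and 79.9% of the probes were in raised ones. The exception was chr8:32619528-72700119, 433 probes with a mean of -0.055, which was below the raised level and not low enough to be called lowered. Over the other autosomes the raised share was 10.6%, 27.9% and 8.95% in FSP270, FSP273 and FSP373 epithelia.

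The raised share depended on the level of 0.1 in FSP270 and FSP373 epithelia. With 0.25 in its place it was 24.8% in FSP270 epithelia, 72.3% in FSP273 and 30.5% in FSP373, so that FSP273 then had the largest share. With normexp background correction it was 86.9% in FSP270 epithelia. With the penalty doubled it was 100% in FSP273 epithelia. The raised share over the other autosomes was not counted at these settings. At the level of 0.1 that share was highest in FSP273 among the epithelial arrays, at 27.9%.

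In the stroma of FSP273 and FSP373 the whole chromosome was a single segment, with means of -0.035 and 0.033. The stroma of FSP270 had 5 segments, of which 2 with 2.28% of the probes were raised. The longer one, chr8:49957825-59205435 with 42 probes, had a mean of 0.53. The other, chr8:96055292-96155417, held 7 probes with a mean of 1.23. Over the other autosomes the raised share was 11.9%, 4.01% and 9.37% in the stroma of FSP270, FSP273 and FSP373, so that 2.28% was below the share of its own array. With the penalty doubled, 0% of the chromosome 8 probes of FSP270 stroma were in raised segments.

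The epithelial arrays shared a higher distal stretch, a feature chosen after the segments were seen and given with no test. It was the middle segment of FSP270 and FSP373 epithelia and the fifth of 6 in FSP273. These segments overlapped over chr8:93050902-120683188, with 535 probes or 24.8% of the chromosome. The mean there was 0.36, 0.90 and 0.44 in the epithelia of FSP270, FSP273 and FSP373, against 0.21, 0.36 and 0.24 over the 1620 other probes. In the stroma it was -0.064, -0.057 and -0.023. Outside it the epithelia of all 3 mice were still above 0. In the segment of FSP273 epithelia below the raised level, the epithelia of FSP270 and FSP373 had means of 0.28 and 0.22. The stroma of the 3 mice had 0.063, 0.063 and 0.012 there. With the penalty doubled, 100% of the probes of FSP273 epithelia were in raised segments. The part of noise and brightness in this segment was not tested.

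Whether the level differed along the chromosome was tested with the mean of the distal 1077 probes minus that of the proximal 1078, which does not depend on the level of the chromosome. This difference was 0.020 in the epithelia of FSP270, 0.44 in FSP273 and 0.098 in FSP373. In the stroma it was -0.055, -0.057 and -0.020. The epithelia were above 0 and the stroma below 0, and the size in the epithelia came largely from FSP273. The epithelial mean was 0.18 ± 0.22 (SD, n = 3) and did not pass the threshold (adjusted p = 0.546 in limma over 20 chromosomes). The stromal mean was -0.044 ± 0.021 (SD, n = 3), and limma gave it an adjusted p of 0.771. The difference between tissues was 0.23 with a standard error of 0.11 (adjusted p = 0.576 in limma). The exact two-sided permutation p was 0.1, the smallest that 3 against 3 arrays allow. The last 100 probes were lower than the first 100 on all 3 epithelial arrays, so the positive difference does not describe the ends. Without FSP273 the epithelial value was 0.059 and the difference between tissues 0.097.

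In limma over the 267 bins of chromosomes 1 to 19 and X, 6 of the 13 bins of chromosome 8 passed the threshold of 0.05 for the adjusted p in the epithelia, all higher, as did 2.62% of all bins. At an unadjusted p under 0.05 it was 11 of 13, against 22.5% of all bins. The epithelial values chose the chromosome, so these counts are no test of its rise. The 6 bins began at 0, 10, 20, 80, 90 and 110 Mb. In the stroma 0 of 13 passed (0% of all bins), and 0 of 13 had an unadjusted p under 0.05 (1.12% of all bins). For epithelia minus stroma 0 of 13 passed (0% of all bins), and 9 of 13 had an unadjusted p under 0.05 (10.5% of all bins), in a contrast that also chose the chromosome. The epithelial count rested on which mice were included. It was 12 of 13 without FSP273, when 20.2% of all bins were past the threshold, and 0 without FSP270 or without FSP373. With the slide as a block it was also 0. In each of the fits with a count of 0, 0% of all 267 bins passed. The estimates moved less than the calls. In the bin at 110 to 120 Mb the epithelial value was 0.61 with all mice, 0.60 with the slide as a block, 0.72 without FSP270, 0.44 without FSP273 and 0.68 without FSP373. For epithelia minus stroma the count was 4 without FSP273, when 4 of all 267 bins passed. Both tissues were on each slide. Epithelia minus stroma of the chromosome mean was 0.40 on slide 1, with 2 mice, and 0.25 on slide 2, with 1 mouse.

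By the same threshold in limma over all probes, 0 of the 2155 passed in the epithelia (0.0236% of all probes), 0 in the stroma (0.00472%) and 0 for epithelia minus stroma (0.0165%). An unadjusted p under 0.05 was found for 506, 228 and 325 of them, against 4525, 4881 and 2841 of all 42404 probes. The stromal share, 10.6%, was below the 11.5% of the whole array. Above 0 on all 3 epithelial arrays were 769 probes, or 35.7% (13.8% of autosomal probes). Higher in epithelia than in stroma in all 3 mice were 732, or 34.0% (15.8% of autosomal probes). The epithelial contrasts chose the chromosome, and nothing is read from these shares.

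On all 6 arrays, 1469 of the 2155 probes had test and reference signals well above background, and among them were 559 with a single sign on all 3 epithelial arrays, 513 of them positive and 46 negative. Of such autosomal probes 12% were positive and 13.7% negative on all 3. Among the 559, the highest by the epithelial mean was A_53_P166942 at chr8:114253337-114253396, with 0.41, 3.61 and 1.25 in the epithelia of FSP270, FSP273 and FSP373 and 0.094, 1.19 and 0.56 in their stroma. The next was A_53_P138706 at chr8:123467332-123467391, with 0.78, 3.10 and 1.20 in the epithelia and -0.024, 0.056 and 0.49 in the stroma. The third was A_53_P173206 at chr8:112442009-112442068, with 0.59, 2.70 and 1.59 in the epithelia and 0.086, -0.39 and 0.34 in the stroma. Among the epithelia all 3 were highest in FSP273, the array with the most noise. The lowest was A_53_P163284 at chr8:42405722-42405781, with -0.33, -1.73 and -0.99 in the epithelia and -1.06, 0.30 and -0.78 in the stroma. A_53_P155639 at chr8:86214614-86214673 had -0.42, -1.33 and -1.23 in the epithelia and -0.88, -0.80 and -1.37 in the stroma. A_53_P140718 at chr8:86111629-86111687 had -1.19, -0.91 and -0.89 in the epithelia and 0.68, -0.22 and -0.47 in the stroma. The adjusted p of these 6 probes in the epithelia lay between 0.346 and 0.401 in limma.

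A single probe of chromosome 8 was below -2 on all 3 epithelial arrays, among 11 on the autosomes (0.027% of autosomal probes). A_53_P127659 at chr8:44634472-44634531 had -3.79, -3.47 and -4.39 in the epithelia of FSP270, FSP273 and FSP373, and -4.31, 1.24 and 0.18 in the stroma. The test channel was not well above background on any of the 3 epithelial arrays, and was on 2 of 3 stromal arrays, so the epithelial values give no exact size. It was not well above background in the stroma of FSP270 either, and that value gives no exact size. Neither adjacent probe was below -2. The probe before it, at chr8:43660844-43660903, had -0.061, -0.76 and 0.87, and lay much farther away than the median spacing of 18.6 kb. The probe after it, at chr8:44636642-44636701, had -0.51, -0.73 and 0.44. Both were below 0 in FSP270 and FSP273. With normexp background correction its epithelial mean was -1.60, against -3.88 with the processed signals.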

How the data were processed

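The deposited intensity values are spot signals from the authors' Feature Extraction run, as medians and as processed signals (background-subtracted, detrended, linearly dye-normalized). Log10 ratios deposited by the authors are reference over test and equal the series table (largest difference 0). Outlier spots were left out. The log2 ratio of processed test over reference signal was averaged per probe and centered on the array median. Bins, chromosomes and their proximal and distal probes were fitted with limma 3.58.1 in R 4.3.3 (tissue means, 1 spread over 6 arrays, Benjamini-Hochberg adjustment). Segmentation was written in Python 3.11.15 (penalty 3 log n times the noise variance, at least 5 probes).

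Named were probes past the threshold, those below -2 on all epithelial arrays, the 3 highest and lowest bins, and the 3 highest and lowest probes among those of a single sign on all epithelial arrays and well above background throughout. The members and lists were chosen with earlier results of these data known. Epithelia and stroma with the same ID came from the same mouse by the labels, and their deviations from the tissue means correlated at 0.077, -0.023 and 0.10 across probes, which are not independent. Mouse and slide were blocks in alternatives. Normexp (offset 50) was planned on mean signals and run on median signals. The series labels describe a larger array format than the 45220 spots per array read here. The number of arrays limits the precision.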

Additional observations from a re-analysis of the deposited data

Results flagged for a closer look

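The distal minus proximal difference was above 0 on all 3 epithelial arrays and below 0 on all 3 stromal arrays, and the tissues differed by 0.23. The test of this difference did not pass the threshold (adjusted p = 0.576 in limma). Among 19 autosomes, the distal minus proximal value of chromosome 8 ranked 4, 2 and 1 in the epithelia of FSP270, FSP273 and FSP373. In their stroma it ranked 12, 12 and 13. The bins at 20 to 30, 90 to 100, 100 to 110 and 110 to 120 Mb were also above 0 in every epithelial array and below 0 in every stromal array. Epithelia exceeded stroma there by 0.44, 0.52, 0.62 and 0.65, higher in 3 of 3 mice, with adjusted p between 0.165 and 0.170 in limma. These bins belong to the contrast that chose the chromosome, and the share of autosomal bins with the same signs was not counted. Over the autosomes, 10.8% of bins had every epithelial array above every stromal array.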

How the results depend on the processing

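Of 350 values under alternatives, 306 kept their direction and their side of the threshold or moved by less than the spread, or by at most 1.5 times for counts. The other 44 were 23 that moved further, 12 that came to pass the threshold, 6 that no longer passed it and 3 that changed sign. The epithelial chromosome mean stayed between 0.25 and 0.39. Leaving out 1 mouse gave 0 to 1 chromosome 8 probes in the epithelia and 0 to 1 in the stroma, with fewer arrays in each fit. Over the whole array it gave 0 to 12 of 42404 probes in either tissue. On chromosome 8 it gave 0 to 12 bins in the epithelia and 0 to 4 for epithelia minus stroma. Of all 267 bins, 0 to 54 passed in the epithelia and 0 to 4 for epithelia minus stroma. The slide as a block gave 0 epithelial bins on chromosome 8 and 0 of all 267, and the cause was not tested. Loess gave 1 epithelial probe on chromosome 8, and 11 of all 42404. It was A_53_P176088 at chr8:93225688-93225747 (adjusted p = 0.0476 in limma, 0.0566 without loess). Fits of a tissue alone gave 1 epithelial and 64 stromal probes, or 0.046% and 2.97% of chromosome 8, against 0.021% and 3.24% of all probes. The epithelial probe of the tissue fit, and of the fits without FSP270 or FSP273, was A_53_P127659. Its test signal was not well above background on any epithelial array. The probe called in the stroma without FSP270 was A_53_P123244 at chr8:19376305-19376364. A_53_P176088 and A_53_P123244 were named after their values were seen.

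The stromal mean, near 0, ranged from -0.028 to 0.0066 when 1 mouse was left out and was 0.033 on slide 2 alone. For bins of 5 Mb, 20 of 24 were above 0 on all epithelial arrays and 18 were higher in epithelia in all mice (16.0% and 15.2% of autosomal bins). For 20 Mb both counts were 6 of 7 (20.5% and 18.9%). The counts follow the number of bins. The difference at 50 to 60 Mb, -0.048 with all mice, ranged from -0.16 to 0.11 when 1 mouse was left out.

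The raised share was 24.8% and 30.5% in FSP270 and FSP373 epithelia with 0.25 as the level. It was 86.9% in FSP270 epithelia with normexp and 100% in FSP273 epithelia with the penalty doubled. In FSP270 stroma it was 0% with the penalty doubled and 0% among probes well above background, and in FSP273 stroma 1.44% without clipping. Apart from the level, the cause was not tested.

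With the mouse as a block, possible only for epithelia minus stroma, 0 chromosome 8 probes (8 of all 42404) and 0 of all 267 bins passed. The distal minus proximal difference between tissues was 0.23 (adjusted p = 0.649 in limma, range 0.457 to 0.719 over its alternatives). On all arrays, 68.2% of chromosome 8 probes and 71.2% of all probes had both signals well above background.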
